A study of Mus musculus with 6 samples.

Results

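Transcripts of glycolysis and of the hypoxia response were followed in mouse ovarian granulosa cells through the first hours after an ovulatory hormone signal, with and without the kinases ERK1 and ERK2. The group held 40 genes chosen by symbol: 17 glycolytic enzymes, 4 transporters of glucose or lactate, 5 switches of carbon flow, 6 hypoxia-inducible factors (HIF) and their regulators, and 8 HIF targets. Of the 18194 genes on the arrays, 37 of these 40 had a probe set that names the gene alone, and each was represented by its probe set with the highest mean over the 6 arrays. Gpi1 and Eno1 were not analysed here, nor was Bnip3l, whose probe sets also name a pseudogene in the annotation. The mean signal of 35 members reached log2 6, an intensity of 64, which lies just above the median of 54 to 55 on each array and was used as a floor for reliable signal. Eno2, an enolase of neurons, stayed at 17 to 33 on every array, and Ankrd37, an ankyrin repeat HIF target, at 35 to 48.

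Knockout (KO) mice carried a deletion of ERK1 and a floxed ERK2 gene cut by Cre under the Cyp19 promoter (ERK1 knockout and ERK2 fl/fl;Cyp19CRE), and wild type (WT) mice were set against them. Cyp19 encodes aromatase, an enzyme of granulosa cells. All mice were 23 days of age. Follicle growth had been stimulated for 48 h with 5 IU of the hormone eCG (equine chorionic gonadotropin). Cells came from KO and WT ovaries before (0 h), 2.5 h and 4 h after 5 IU of human chorionic gonadotropin (hCG), which acts on the receptor for luteinizing hormone. Each genotype and time had 1 Affymetrix array and no replicate, and the labels do not say how many mice a sample held. Transcripts of the deleted kinases were not analysed here, which leaves the genotypes as labelled.

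Glycolysis splits glucose into pyruvate, which lactate dehydrogenase turns into lactate or which mitochondria oxidise. HIF-1alpha and HIF-2alpha are transcription factors that prolyl hydroxylases mark for destruction through the VHL protein when oxygen is plentiful, and in low oxygen they raise genes of glucose uptake, glycolysis and adaptation to hypoxia. Granulosa cells lie inside the basal lamina of a follicle without blood vessels of their own, and they supply the oocyte with pyruvate and lactate.

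HIF binds a short core, ACGTG or GCGTG, in the DNA near its targets. RefSeq promoter windows of build GRCm38.p6, 300 bases running from 250 before to 50 after an annotated start, were found for 36 of the 40 members, in 53 windows. Those of the 6 members with the largest change against 0 h among members with a window are shown on the gene's strand, with each core, read on either strand, in capitals. They lie at chr4:119108495-119108794 on the plus strand (Slc2a1), and on the minus strand at chr10:78009758-78010057 (Pfkl), chr1:130715772-130716071 (Pfkfb2, the first of 3 windows), chr12:54203825-54204124 (Egln3), chr7:138909457-138909756 (Bnip3) and chr10:59951721-59952020 (Ddit4).
Slc2a1: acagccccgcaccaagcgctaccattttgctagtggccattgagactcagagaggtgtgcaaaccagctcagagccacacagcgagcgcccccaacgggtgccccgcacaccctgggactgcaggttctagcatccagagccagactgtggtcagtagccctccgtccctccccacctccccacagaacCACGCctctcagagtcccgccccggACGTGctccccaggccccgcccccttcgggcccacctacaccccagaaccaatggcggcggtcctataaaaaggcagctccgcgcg
Pfkl: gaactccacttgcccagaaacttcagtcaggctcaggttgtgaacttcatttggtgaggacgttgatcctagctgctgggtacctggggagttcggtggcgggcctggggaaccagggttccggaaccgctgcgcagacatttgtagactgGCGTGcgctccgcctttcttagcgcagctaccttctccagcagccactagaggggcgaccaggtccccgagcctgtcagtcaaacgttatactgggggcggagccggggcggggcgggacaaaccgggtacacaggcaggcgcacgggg
Pfkfb2: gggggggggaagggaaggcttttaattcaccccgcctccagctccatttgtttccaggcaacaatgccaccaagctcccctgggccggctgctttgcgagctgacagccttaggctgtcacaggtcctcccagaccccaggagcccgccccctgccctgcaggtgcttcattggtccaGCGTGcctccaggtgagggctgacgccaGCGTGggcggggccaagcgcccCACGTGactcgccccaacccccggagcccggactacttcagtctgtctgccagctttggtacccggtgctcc
Egln3: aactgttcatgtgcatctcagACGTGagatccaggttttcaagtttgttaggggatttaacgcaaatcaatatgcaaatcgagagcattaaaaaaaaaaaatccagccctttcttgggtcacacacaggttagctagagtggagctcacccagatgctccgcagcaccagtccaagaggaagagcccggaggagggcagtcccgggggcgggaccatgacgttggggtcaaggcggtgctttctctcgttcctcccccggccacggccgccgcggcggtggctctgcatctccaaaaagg
Bnip3: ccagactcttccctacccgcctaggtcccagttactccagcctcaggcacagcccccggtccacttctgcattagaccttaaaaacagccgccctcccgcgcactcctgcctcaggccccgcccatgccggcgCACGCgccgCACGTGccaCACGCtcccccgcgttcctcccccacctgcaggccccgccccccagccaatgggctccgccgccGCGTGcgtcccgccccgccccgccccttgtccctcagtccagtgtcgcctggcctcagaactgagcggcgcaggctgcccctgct
Ddit4: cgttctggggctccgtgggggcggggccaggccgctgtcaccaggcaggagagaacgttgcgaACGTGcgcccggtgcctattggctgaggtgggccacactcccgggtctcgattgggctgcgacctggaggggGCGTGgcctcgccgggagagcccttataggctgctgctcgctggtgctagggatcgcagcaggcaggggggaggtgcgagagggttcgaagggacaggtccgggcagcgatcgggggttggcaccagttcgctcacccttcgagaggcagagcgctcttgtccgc
Each of these 6 windows held at least 1 core. Either core was present in 42 of the 53 windows (79.2%) and in 43.8% of all 32851 promoter windows of the same length. ACGTG was in 54.7% of member windows and 19.6% of all, and GCGTG in 58.5% and 32.4%. Member windows were also richer in G and C, with a median of 63.3% against 52.7% for all, and a median of 21 against 7 CG pairs, and both cores contain CG. The palindrome TGACGTCA bound by CREB, the factor activated by cyclic AMP, was in 1.9% of member windows and 1.8% of all, and its shorter core TGACG, which the palindrome contains, in 22.6% and 20.8%. A match is a run of letters and not a measured binding site.

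On each array 47.1% to 47.6% of probe sets were at or over the floor. RMA, the method behind the deposited values, equalises the spread of arrays, so this likeness is no check of the samples. The ratio of the 3' to the 5' control probe set of Gapdh, which gauges how intact the RNA was, ran from 3.99 to 5.21 across the KO arrays and from 3.55 to 4.79 across the WT arrays, highest at 0 h in each genotype. The 3' probe set also represents Gapdh as a member. Of 10 granulosa markers 9 were measured, and all 9 were over the floor on average. Their summed intensity was 111882, 133064 and 132711 on the KO arrays and 114944, 89148 and 81825 on the WT arrays. Oocyte markers were over the floor in 8 of 8 cases, and their summed intensity was 24469, 10053 and 8889 on the KO arrays and 13042, 7745 and 8314 on the WT arrays. Theca markers summed to 5178, 15337 and 15563 on the KO arrays against 5270, 3854 and 3293 on the WT arrays. In that list Cyp17a1 carried the higher KO signal, Ptch1 did not share it, and Gli1 stayed under the floor at 25 to 29. Endothelial markers, 3 of 6 over the floor, summed to 516, 534 and 534 on the KO arrays and 505, 941 and 776 on the WT arrays. Pecam1 stayed at 27 to 32 throughout. The 3 over the floor on average, Kdr, Cdh5 and Cldn5, were each lower in KO than in WT cells at 2.5 h and 4 h. In bulk samples, fewer cells of a type and less RNA per cell cannot be told apart.

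A pair of arrays was compared by size, counting a gene when the values differed at least 2-fold and the brighter array was at 64 or more. Before hCG, 0 of 34 members differed at least 2-fold between KO and WT cells, where 0.811% of all genes were higher and 0.908% lower. Small differences ran mostly one way, with 27 of 34 members below WT in KO cells against 55.8% of all genes, and a median log2 difference of -0.25 against -0.03. Oocyte markers were higher in KO cells at this time, by a median log2 of 0.91, and their part in this pattern was not tested. By role, 13 of 14 glycolytic enzymes and 4 of 4 transporters lay below WT, with medians of -0.25 and -0.58.

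At 2.5 h after hCG, 2 of 35 members were at least 2-fold higher in KO than in WT cells, Pfkfb2 and Ddit4, against 1.48% of genes. Slc2a1 alone of the 35 was lower, against 3.08% of genes. The median log2 difference of the members was 0.37, with 26 above WT (74.3%), and that of all genes was 0.14, with 65.9% above WT. Among the glycolytic enzymes 11 of 14 were above WT, by a median of 0.41, and at most 0.69 for Tpi1. With cyclic loess scaling between the arrays this was 10 of 14 and a median of 0.16. Granulosa markers were also higher in KO than in WT cells, by a median log2 of 0.48 at 2.5 h and 0.54 at 4 h, and their part in the members' differences was not tested.

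At 4 h, 4 members were at least 2-fold higher in KO than in WT cells, against 4.99% of genes: Aldoc, Pfkfb2, Ddit4 and P4ha2. The 3 that were lower, against 4.15% of genes, were Hk2, Slc2a1 and Vldlr. The median of the members was 0.15 and that of all genes 0.19, with 57.1% of members and 66.9% of all genes above WT. This side was not settled, since cyclic loess or median centring gave the members a median of -0.05. Cyclic loess scaling or centring each array on its median also left 2 higher (Pfkfb2 and Ddit4) and made 5 lower, adding Pfkp and Ndrg1.

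**Figure D1:**
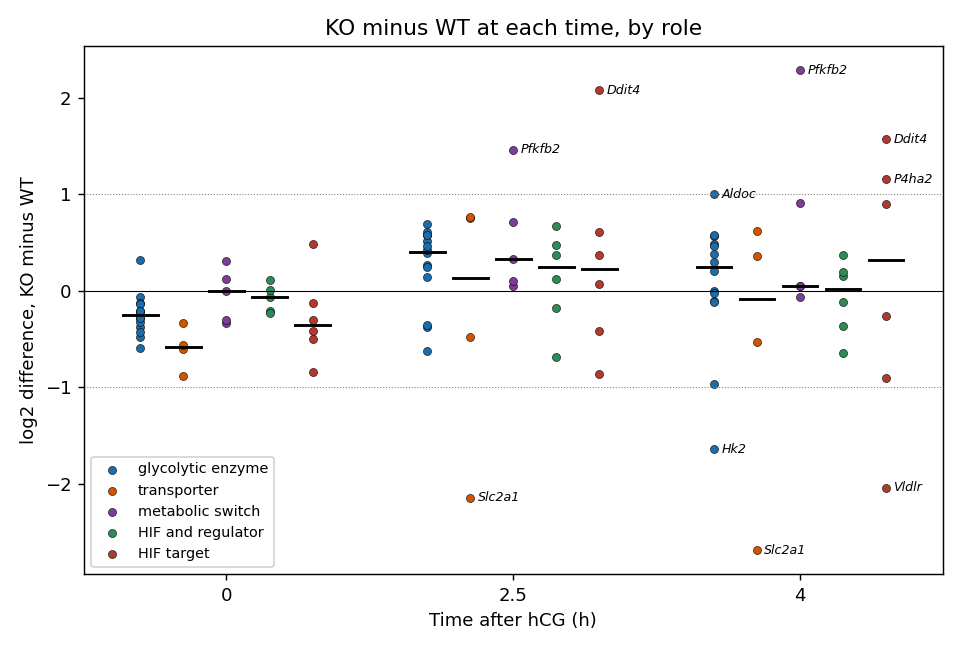
Log2 difference between KO and WT arrays for each member at 0 h, 2.5 h and 4 h after hCG, by role, with 1 array per genotype and time and values only where the brighter array reached intensity 64; bars are role medians and dotted lines mark 2-fold. Slc2a1 reached -2.14 at 2.5 h and -2.69 at 4 h, while Ddit4 reached 2.08 at 2.5 h and Pfkfb2 2.29 at 4 h.

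The transporters split by direction. Slc2a1 (GLUT1, the glucose carrier of most cells; probe set 1434773_a_at, chromosome 4) had intensities, at 0 h, 2.5 h and 4 h in turn, of 448, 318 and 402 in KO cells and 679, 1402 and 2586 in WT cells. Values of other genes are given in the same order of times. The WT signal was therefore 2.06-fold and 3.81-fold that at 0 h after 2.5 h and 4 h, and the KO signal lay below its own 0 h value at both times. KO cells were lower than WT by 4.41-fold at 2.5 h and 6.43-fold at 4 h, and the 3 KO values lay below all 3 WT values. All 3 probe sets of the gene gave this, with log2 differences of -1.49 to -2.14 at 2.5 h and -2.42 to -2.69 at 4 h. They disagreed on the small change within KO cells, which 1426600_at put above 0 h by 0.21 and 0.38. The share of all genes whose arrays separate by genotype was not computed, here or for the genes below. Endothelium and red blood cell precursors also express GLUT1. Pecam1 stayed under the floor on every array, and so did the haemoglobin gene Hba-a1, at 18 to 21. The endothelial sum given above was higher on the WT arrays after hCG, as were Kdr, Cdh5 and Cldn5. Kdr read 299, 276 and 282 in KO cells and 205, 452 and 457 in WT cells. The median log2 difference of the endothelial markers, KO minus WT, was -0.72 at 2.5 h and -0.41 at 4 h. Red blood cell markers, 1 of 3 measured over the floor, summed to 412, 241 and 284 in KO cells and 388, 580 and 604 in WT cells, mostly through Alas2, an enzyme of heme synthesis. The part of either cell type in the Slc2a1 difference was not tested.

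Slc16a1 (MCT1, a carrier of lactate and pyruvate; 1415802_at, chromosome 3) read 3844, 10775 and 6049 on the KO arrays and 5661, 6396 and 3928 on the WT arrays. The KO array at 2.5 h was the highest of the 6, 2.80-fold the KO array at 0 h, and the other 5 overlapped between genotypes. Slc16a3 (MCT4, the lactate exporter; 1449005_at, chromosome 11) was close to the floor, at 66, 138 and 67 on the KO arrays and 122, 81 and 52 on the WT arrays. Its signal at 2.5 h in KO cells was 2.09-fold that at 0 h, and in WT cells it was 2.35-fold lower at 4 h than at 0 h, where the 4 h value lay under the floor. Against the floor itself that difference was 1.91-fold, so this call rests on a signal that is hard to tell from background. Slc2a3 (GLUT3, a high-affinity glucose carrier) was also dim, at 73 to 91 on the KO arrays and 92 to 131 on the WT arrays, without a 2-fold difference.

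**Figure D2:**
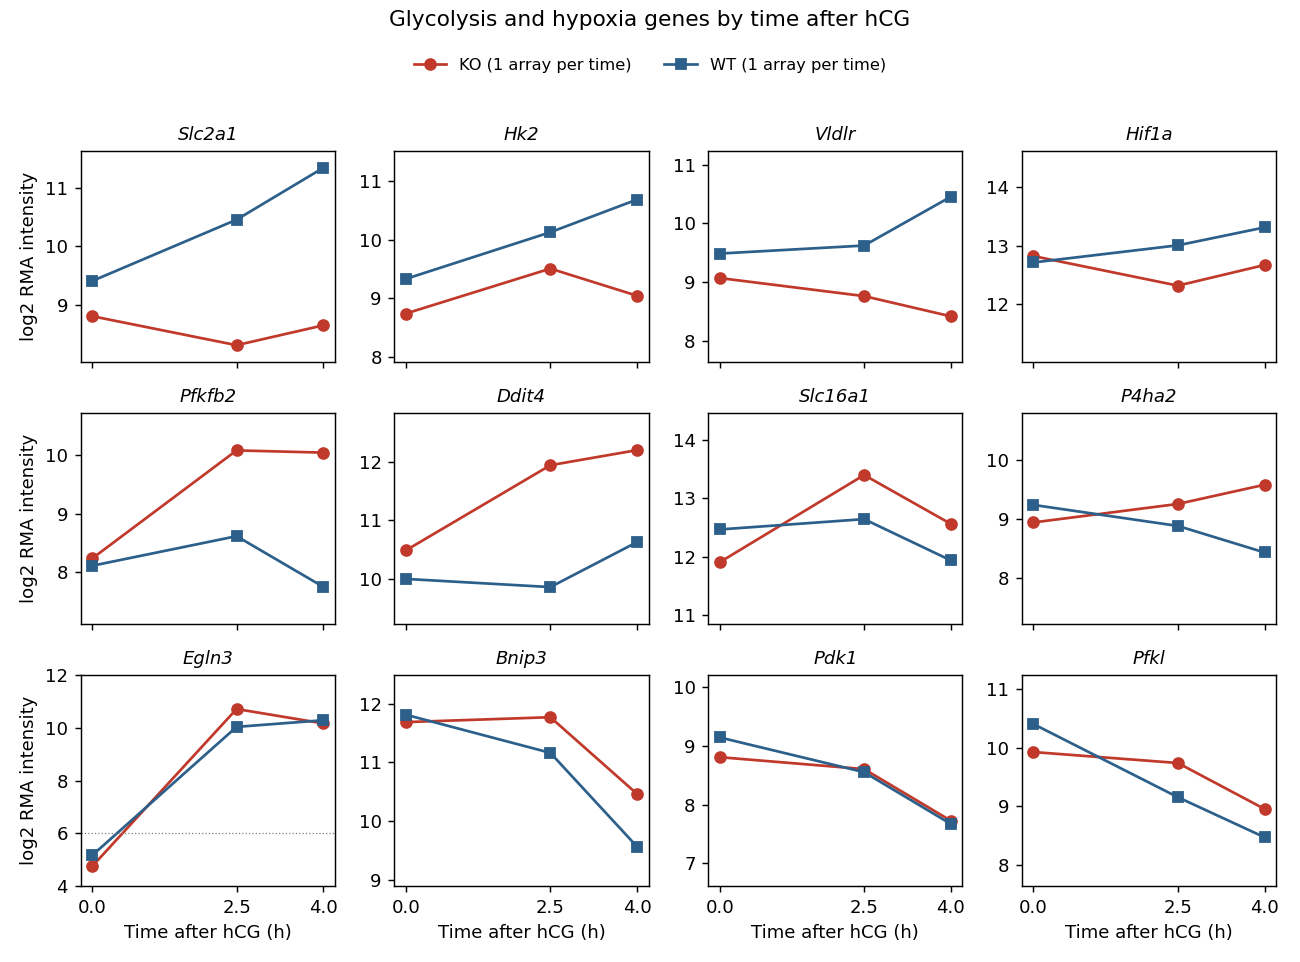
Log2 RMA intensity of 12 members at 0 h, 2.5 h and 4 h after hCG in KO and WT granulosa cells, 1 array per point, with the floor of log2 6 as a dotted line for Egln3. As intensities, Slc2a1 ran from 318 to 448 across the KO arrays and reached 2586 in WT cells at 4 h, and Egln3 was under 64 at 0 h in both genotypes and between 1052 and 1682 after hCG.

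Among the glycolytic enzymes, Hk2 was at least 2-fold higher and Pfkl, Pfkm and Aldoc at least 2-fold lower in WT cells at 4 h than at 0 h. Hk2 (the inducible hexokinase; 1422612_at, chromosome 6) had intensities of 427, 726 and 527 on the KO arrays and 643, 1116 and 1642 on the WT arrays. WT cells at 4 h were 2.55-fold above 0 h, and KO cells were 3.12-fold below WT at 4 h, and the ranges overlapped only because the KO array at 2.5 h exceeded the WT array at 0 h. Pfkl (the liver subunit of phosphofructokinase; 1439148_a_at, chromosome 10) read 972, 854 and 496 on the KO arrays and 1353, 570 and 355 on the WT arrays. In WT cells it was 2.37-fold lower at 2.5 h and 3.81-fold lower at 4 h than at 0 h, and the genotypes overlapped. Its probe set 1450269_a_at gave WT log2 differences of -0.78 and -1.19, and 1453541_at gave -0.25 and -0.02. Pfkm (the muscle subunit; 1416780_at, chromosome 15) read 733, 728 and 403 on the KO arrays and 765, 605 and 272 on the WT arrays. In WT cells it was 2.81-fold lower at 4 h than at 0 h and 2.22-fold lower than at 2.5 h. Aldoc (aldolase C; 1451461_a_at, chromosome 11) read 269, 384 and 232 on the KO arrays and 294, 268 and 116 on the WT arrays. The WT array at 4 h was the lowest, 2.53-fold below 0 h and 2.31-fold below 2.5 h, and KO cells were 2.0-fold above it.

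The other enzymes over the floor, with Slc2a3, Pdk3, Pfkfb3 and P4ha1, made 14 members without a 2-fold difference in any of the 9 comparisons of arrays. Between KO and WT cells their log2 differences ran from -0.50 (P4ha1) to 0.32 (Ldhb, the subunit of lactate dehydrogenase that favours pyruvate) at 0 h. At 2.5 h they ran from -0.48 (Slc2a3) to 0.69 (Tpi1, triosephosphate isomerase), and at 4 h from -0.96 (Pfkp, the platelet phosphofructokinase) to 0.58 (Tpi1). In WT cells 12 of 14 enzymes were below 0 h at 2.5 h (median -0.24) and 12 of 14 at 4 h (median -0.33), where 71.4% and 65.4% of all genes were below it (medians -0.21 and -0.20). With cyclic loess scaling these were 9 and 10 of 14, with medians of -0.03 and -0.15. In KO cells 10 of 14 were above 0 h at 2.5 h (median 0.40) and 8 of 14 at 4 h (median 0.06, and -0.01 with cyclic loess), where 46.6% and 51.1% of all genes were above it. Ldha (the subunit that favours lactate; 1419737_a_at, chromosome 7) had the highest of the 14 values in KO cells at 2.5 h, a log2 of 0.80. It read 6327, 10985 and 8395 on the KO arrays and 8476, 7349 and 7294 on the WT arrays.

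Among the switches, Pfkfb2 makes fructose 2,6-bisphosphate, the activator of phosphofructokinase (1429486_at, chromosome 1). It had intensities of 302, 1083 and 1055 on the KO arrays and 277, 393 and 216 on the WT arrays. After hCG the KO cells stood 3.59-fold and 3.49-fold above their 0 h value at 2.5 h and 4 h, and they exceeded WT by 2.76-fold and 4.88-fold. The KO arrays after hCG were above all WT arrays, while at 0 h the genotypes were close. The second probe set over the floor on average, 1422091_at, read 58, 87 and 85 on the KO arrays and 80, 101 and 101 on the WT arrays, so it put KO below WT. Pfkfb4 (a related enzyme; 1456888_at, chromosome 9) read 262, 339 and 549 on the KO arrays and 211, 207 and 292 on the WT arrays, and the KO value at 4 h was 2.10-fold that at 0 h. Pdk1 (a kinase that blocks pyruvate entry to the mitochondrial cycle; 1423748_at, chromosome 2) read 449, 390 and 212 on the KO arrays and 567, 376 and 204 on the WT arrays. It was lowest at 4 h in both genotypes, 2.12-fold below 0 h in KO cells and 2.78-fold below 0 h in WT cells, and the genotypes overlapped. Its other 2 probe sets over the floor were lower at 4 h in WT cells too, by -1.50 and -1.97.

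The sensors and regulators of HIF had 1 member that went far beyond the rest. Egln3 (PHD3, a prolyl hydroxylase that is itself a HIF target; 1418649_at, chromosome 12) had intensities of 27, 1682 and 1152 on the KO arrays and 36, 1052 and 1252 on the WT arrays. Both 0 h values were under the floor and the 4 later ones far above it, with the genotypes overlapping. Against the floor of 64 the signal was at least 26.3-fold higher at 2.5 h and 18.0-fold higher at 4 h in KO cells, and at least 16.4-fold and 19.6-fold higher in WT cells. A second, dimmer probe set, 1418648_at, was also higher after hCG, at 32, 135 and 96 on the KO arrays and 44, 83 and 98 on the WT arrays.

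The sister hydroxylases and VHL differed less between arrays. Egln1 (PHD2, the main oxygen sensor; 1423785_at, chromosome 8) read 984, 909 and 914 on the KO arrays and 1027, 702 and 822 on the WT arrays. Egln2 (PHD1; 1416533_at, chromosome 7) read 1286, 1335 and 1588 on the KO arrays and 1281, 1230 and 1383 on the WT arrays. Vhl (which marks hydroxylated HIF for destruction; 1434708_at, chromosome 6) read 260, 325 and 333 on the KO arrays and 304, 234 and 257 on the WT arrays. Egln1, Egln2 and Vhl differed less than 2-fold in each of the 9 comparisons.

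Hif1a (HIF-1alpha; 1427418_a_at, chromosome 12) had intensities of 7257, 5118 and 6531 on the KO arrays and 6732, 8244 and 10185 on the WT arrays. The WT arrays after hCG were above all KO arrays, but no difference reached 2-fold with this probe set. Its probe set 1448183_a_at gave KO below WT by log2 differences of -1.72 at 2.5 h and -1.75 at 4 h, against -0.69 and -0.64 for the one used, and 1416035_at gave -1.06 at 2.5 h. Epas1 (HIF-2alpha; 1435436_at, chromosome 17) read 4387, 3527 and 2820 on the KO arrays and 5059, 3982 and 3633 on the WT arrays. It was lowest at 4 h in both genotypes, although another probe set of the gene, 1449888_at, went the other way, by a log2 of 1.10 in WT cells.

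HIF targets did not share a direction. Bnip3 (a mitochondrial protein of cell death and mitophagy; 1422470_at, chromosome 7) had intensities of 3298, 3494 and 1412 on the KO arrays and 3597, 2293 and 757 on the WT arrays. The 4 h array was the lowest of each genotype, 2.34-fold below 0 h in KO cells and 4.75-fold below 0 h in WT cells. Ddit4 (REDD1, an inhibitor of mTOR complex 1; 1428306_at, chromosome 10) read 1436, 3927 and 4693 on the KO arrays and 1024, 930 and 1582 on the WT arrays. In KO cells it was 2.73-fold and 3.27-fold above 0 h at 2.5 h and 4 h, and it exceeded WT by 4.22-fold and 2.97-fold. The KO arrays after hCG were above every WT array. Theca markers were higher on the same arrays through Cyp17a1 alone, as given above, and their part in the Ddit4 and Pfkfb2 differences was not tested.

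Ndrg1 (a stress-responsive HIF target; 1420760_s_at, chromosome 15) had intensities of 159, 310 and 307 on the KO arrays and 284, 413 and 574 on the WT arrays. It was higher after hCG than at 0 h in both genotypes, by 2.02-fold in WT cells at 4 h. Its other 2 probe sets over the floor gave log2 differences of 1.08 and 0.38 there. Vldlr (a lipoprotein receptor; 1434465_x_at, chromosome 19) read 536, 433 and 341 on the KO arrays and 716, 787 and 1401 on the WT arrays. All KO arrays were below all WT arrays, by 4.11-fold at 4 h, and its 5 probe sets over the floor gave log2 differences of -1.21 to -2.07 there. P4ha2 (a collagen prolyl 4-hydroxylase subunit; 1417149_at, chromosome 11) read 492, 612 and 768 on the KO arrays and 605, 472 and 345 on the WT arrays. At 4 h KO cells were 2.23-fold above WT.

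**Figure D3:**
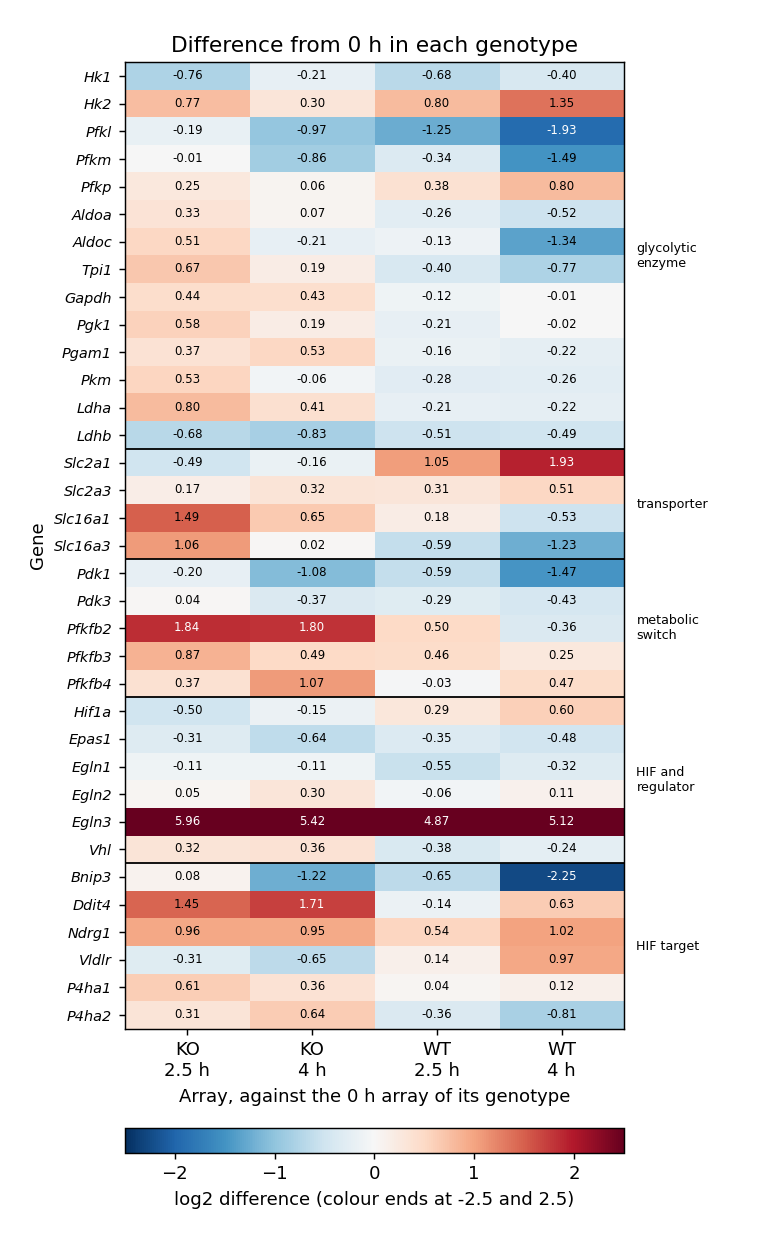
Log2 difference against the 0 h array of the same genotype at 2.5 h and 4 h after hCG, for each member in KO and WT cells, as 1 pair of arrays per column with the colour scale ending at -2.5 and 2.5. Of the 35 members shown, Egln3, whose 0 h values are under the floor, alone lies beyond that scale, at 5.96 and 5.42 in KO cells and 4.87 and 5.12 in WT cells.

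After hCG, 5 of 35 members were at least 2-fold above 0 h in KO cells at 2.5 h and 0 below, where 3.42% of genes were higher and 3.76% lower. The 5 were Slc16a1, Slc16a3, Pfkfb2, Egln3 and Ddit4. At 4 h in KO cells 4 were higher (Pfkfb2, Pfkfb4, Egln3 and Ddit4) and 2 lower (Pdk1 and Bnip3), against 3.89% and 4.83% of genes. Between 2.5 h and 4 h in KO cells 0 were higher and 2 lower (Slc16a3 and Bnip3), against 0.462% and 0.533%. In WT cells at 2.5 h 2 were higher (Slc2a1 and Egln3) and 1 lower (Pfkl), against 3.54% and 1.02% of genes. At 4 h in WT cells 4 were higher (Hk2, Slc2a1, Egln3 and Ndrg1) and 6 lower (Pfkl, Pfkm, Aldoc, Slc16a3, Pdk1 and Bnip3), against 5.47% and 9.04%. From 2.5 h to 4 h in WT cells 0 were higher and 3 lower (Pfkm, Aldoc and Bnip3), against 1.61% and 1.91%. Comparisons at 2.5 h and 4 h share the 0 h array of their genotype, so these counts are not independent of each other. The median of all genes lay at -0.21 and -0.20 in WT cells at 2.5 h and 4 h against 0 h, and at -0.03 and 0.02 in KO cells. Of all genes at least 2-fold different in WT cells, 77.7% were higher at 2.5 h and 37.7% at 4 h, against 94.3% and 60.8% after median centring.

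Models over all 6 arrays were fitted with limma for 11153 genes, with Benjamini-Hochberg adjustment at 0.05. The residual there is how much a difference varies between times or genotypes, not between animals. The response to hCG over both genotypes, the mean of 2.5 h and 4 h minus 0 h, passed for 5 of 35 members, against 3.44% of genes that rose and 6.73% that fell. Egln3 rose, with a fitted log2 of 5.34 ± 0.24 (SE, adjusted p = 0.00124, limma) that rests on 0 h values under the floor. With those set to the floor its mean response was a log2 of at least 4.30. Ndrg1 rose by 0.87 ± 0.16 (adjusted p = 0.0339, limma). Pdk1 fell by 0.84 ± 0.16 on the log2 scale (adjusted p = 0.0327, limma), Pfkl by 1.08 ± 0.25 (0.0474) and Bnip3 by 1.01 ± 0.23 (0.0475). Each of these 5 moved one way in both genotypes at both times, save the KO array of Bnip3 at 2.5 h, which lay slightly above 0 h. The Gapdh 3' to 5' ratio was highest at 0 h in each genotype too, and its part in these responses was not tested. Without the 4 h arrays Pdk1, Pfkl and Bnip3 lost the call, with adjusted p of 0.245, 0.0589 and 0.475 in limma. Over all alternatives the adjusted p of limma ran from 2.91e-10 to 0.0127 for Egln3, and the other 4 lost their call in at least 1. Ndrg1 and Pdk1 each kept the call in 6 of 8 alternatives, but Pfkl and Bnip3 each in only 3 of 8. Their largest adjusted p over the alternatives in limma was 0.0640 for Ndrg1, 0.245 for Pdk1, 0.0914 for Pfkl and 0.475 for Bnip3.

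The genotype difference over the 3 times passed for 0 of 35 members in limma, against 0.00897% of genes higher and 0.0269% lower. At an unadjusted p under 0.05 it held for 9 members and for 17.4% of genes. Ndrg1 was lower in KO cells by a log2 of -0.72 ± 0.15 (SE, adjusted p = 0.161, limma). Slc2a1 was lower in KO cells by a log2 of -1.81 ± 0.38 (SE, adjusted p = 0.158, limma), and Ddit4 was higher by 1.38 ± 0.30 (adjusted p = 0.161, limma). Both genes were more different after hCG than before it, and this spread between times enters the residual. Without the 0 h arrays, limma gave -2.41 ± 0.18 for Slc2a1 (adjusted p = 0.0153), 1.82 ± 0.18 for Ddit4 (0.0242) and 1.88 ± 0.23 for Pfkfb2 (0.0371), with 1.73% of genes called higher and 2.49% lower. That fit has 1 residual degree of freedom. Without the 4 h arrays, Slc2a1 (adjusted p = 0.0121, limma) and Ddit4 (0.0204) also passed. Without the 2.5 h arrays 0 of 35 members passed, with adjusted p in limma of 0.293 for Slc2a1, 0.393 for Ddit4 and 0.528 for Pfkfb2. Over all alternatives the adjusted p of Slc2a1, Ddit4 and Pfkfb2 in limma lay between the values without the 2.5 h arrays and the lowest given here.

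The genotype by hCG interaction, which asks whether KO and WT cells differ in their response, passed for 0 of 35 members and for 0 of 11153 genes in limma. At an unadjusted p under 0.05 it held for 7 members and for 9.1% of genes. The largest in size were Slc2a1 at -1.81 ± 0.56 and Pfkfb2 at 1.75 ± 0.52 (SE, adjusted p = 0.542 for each, limma). The interaction fit took the 2.5 h and 4 h arrays of a genotype as a single group. Change between those times counted as error there, and each 0 h group held 1 array. The time courses of Slc2a1, Pfkfb2 and Ddit4 in KO and WT cells are therefore given as values and not as a tested difference of response.

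Other genes of the same pathways were taken from lists of 66 genes, of which 57 were measured and 51 were over the floor. In limma with the reported settings 6 of them rose with hCG over both genotypes and 2 fell, and the alternatives are not given for these genes. Those that rose were Cxcr4 (a chemokine receptor, fitted log2 3.80, adjusted p = 0.0204), Bhlhe40 (a repressor of the clock, 2.11, 0.00533), Vegfa (an angiogenic factor, 1.14, 0.0231), Pgm2 (1.10, 0.0234), Cited2 (a brake on HIF, 0.82, 0.0266) and Tfrc (the transferrin receptor, 0.62, 0.0434). Pdk4, a sister of Pdk1, fell by 0.91 on the log2 scale (adjusted p = 0.0272, limma) and Gpd1l by 0.67 (0.0403). Between KO and WT cells 0 were at least 2-fold higher at any time, and 3 of 50, 5 of 52 and 7 of 53 were lower at 0 h, 2.5 h and 4 h, against the 0.908%, 3.08% and 4.15% of genes given above. Of the lower genes, 3, 4 and 6 were among the 23, 24 and 24 known HIF targets compared at those times. The lists were chosen with earlier results of these data known, so these shares are not an independent comparison.

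Of these, Cxcr4 had intensities of 21, 111 and 201 on the KO arrays and 27, 291 and 1883 on the WT arrays. Its 0 h values were under the floor too, and with them set to it the mean response was a log2 of at least 2.38 and the WT signal at 4 h at least 29.4-fold higher. Bhlhe40 read 142, 632 and 477 on the KO arrays and 325, 1674 and 1449 on the WT arrays, so each KO array lay below the WT array of its time. Pdp1, the phosphatase that opposes Pdk1, read 664, 423 and 434 on the KO arrays and 672, 1481 and 2010 on the WT arrays, 4.63-fold lower in KO than in WT cells at 4 h. Adm, a vasodilator peptide, read 86, 100 and 109 on the KO arrays and 197, 280 and 284 on the WT arrays, and Lox, a collagen crosslinker, 297, 324 and 358 on the KO arrays and 899, 624 and 877 on the WT arrays. In both, every KO array was below every WT array, and the share of all genes with such a separation was not computed. Vegfa read 355, 636 and 742 on the KO arrays and 474, 1263 and 1126 on the WT arrays. Nfil3 reached 3.05-fold in WT cells at 4 h against 0 h, and Pgm2 2.50-fold. Edn1 was 2.82-fold lower in KO than in WT cells at 2.5 h, Stc2 2.13-fold higher in KO cells at 2.5 h than at 0 h, Pdk4 2.14-fold lower in KO cells at 4 h than at 0 h, and Cited2 2.11-fold higher in WT cells at 4 h than at 0 h.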

How the data were processed

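RNA of mouse granulosa cells from 6 samples, 1 per genotype and time, was measured on Affymetrix arrays. The deposited intensity values were made with RMA in the affy package, per the submitters' processing notes, with versions not given in the sources used here. They were whole numbers on a linear scale, so log2 was taken, as the planned tests had assumed log2 values. RMA equalises the spread of arrays and so hides any change in RNA content per cell, and the number of arrays limits the precision.

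Of 45101 probe sets, 34958 named 1 gene, 932 several and 9211 none; by gene ID 34754 matched RefSeq (GRCm38.p6). Of 18194 genes, 11153 had a mean log2 of at least 6. Differences of at least log2 1 were counted. Tests used limma 3.58.1 in R 4.3.3, with Benjamini-Hochberg adjustment at 0.05, after tests on simulated data. Each model of all 6 arrays left 2 residual degrees of freedom, and additive fits without 1 time left 1. The alternatives were no floor, a floor of log2 7, cyclic loess, median centring, the mean of probe sets, a trended prior and leaving out the arrays of 1 time (0 h, 2.5 h or 4 h).

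The members, lists and naming rule were chosen with earlier results of these data known. All 6 values are given for members that passed a test or differed at least 2-fold, and for the HIF regulators. Ldha is given as well, as the enzyme with the highest log2 difference in KO cells at 2.5 h against 0 h. Genes of the other pathway lists, up to 12 by size, are named by the same 2-fold rule.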

Additional observations from a re-analysis of the deposited data

Results flagged for a closer look

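Opposite signs of the response to hCG in KO and WT cells, at both 2.5 h and 4 h, were seen in 12 of 35 members (34.3%), against 18.7% of the 11153 genes over the floor. With 1 array per group this says nothing of replicate error. The difference in response between genotypes was tested for these genes only by the interaction in limma, where none of the 12 passed after adjustment. That fit counts change between 2.5 h and 4 h as error. The values are log2 differences against the 0 h array of the same genotype, at 2.5 h and then at 4 h. In 9 of them KO cells lay above 0 h and WT cells below it. Aldoa (aldolase A) was at 0.33 and 0.07 in KO cells, and at -0.26 and -0.52 in WT cells. Tpi1 (triosephosphate isomerase) was at 0.67 and 0.19 in KO cells, and at -0.40 and -0.77 in WT cells. Gapdh (glyceraldehyde 3-phosphate dehydrogenase) was at 0.44 and 0.43 in KO cells, and at -0.12 and -0.01 in WT cells. Pgk1 (phosphoglycerate kinase) was at 0.58 and 0.19 in KO cells, and at -0.21 and -0.02 in WT cells. Pgam1 (phosphoglycerate mutase) was at 0.37 and 0.53 in KO cells, and at -0.16 and -0.22 in WT cells. Ldha (lactate dehydrogenase A) was at 0.80 and 0.41 in KO cells, and at -0.21 and -0.22 in WT cells. These 6 are glycolytic enzymes, and each was within 2-fold of 0 h. Slc16a3 was at 1.06 and 0.02 in KO cells, and at -0.59 and -1.23 in WT cells. Vhl was at 0.32 and 0.36 in KO cells, and at -0.38 and -0.24 in WT cells. P4ha2 was at 0.31 and 0.64 in KO cells, and at -0.36 and -0.81 in WT cells. In the other 3, KO cells lay below 0 h and WT cells above it. Slc2a1 was at -0.49 and -0.16 in KO cells, and at 1.05 and 1.93 in WT cells. Hif1a was at -0.50 and -0.15 in KO cells, and at 0.29 and 0.60 in WT cells. Vldlr was at -0.31 and -0.65 in KO cells, and at 0.14 and 0.97 in WT cells. Of the 12, cyclic loess kept 8 and median centring kept 8, and the mean of all probe sets kept 10, without Slc2a1 and Gapdh. The share of all genes was not computed for these alternatives. The 34.3% against 18.7% is therefore known for the deposited values only. Of the 3 probe sets of Slc2a1, 1426600_at lay above 0 h in KO cells, by 0.21 and 0.38. Probe sets also disagreed in sign for Gapdh, Pgk1 and Vldlr in WT cells at 1 or both times. In KO cells those of Aldoa did so at 4 h. The 5' probe set of Gapdh lay above 0 h in WT cells, by 0.31 and 0.25. Under cyclic loess the enzymes that left were Aldoa, Gapdh, Pgk1 and Pgam1, and in WT cells the all-gene median was itself below 0 h at both times in the deposited values.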

How the results depend on the processing

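Counts of members at least 2-fold different stayed within 1.5 times the reported count under every alternative, with these exceptions. Between KO and WT cells at 2.5 h, cyclic loess and the mean of probe sets each gave 2 lower (reported, 1), and the mean of probe sets gave 1 higher (reported, 2). At 4 h, cyclic loess, median centring and the mean of probe sets each gave 2 higher (reported, 4), and cyclic loess and median centring each gave 5 lower (reported, 3). In WT cells at 2.5 h against 0 h, the mean of probe sets gave 0 lower (reported, 1). The genotype difference in limma, 0 members as reported, gave 2 higher and 1 lower without the 0 h arrays, 1 higher and 1 lower without the 4 h arrays, and 0 without the 2.5 h arrays. The hCG response, 2 higher and 3 lower as reported, gave 1 higher and 0 lower with no floor, 1 lower with cyclic loess or median centring, 1 higher with the mean of probe sets, and 6 higher and 1 lower without the 4 h arrays. The cause of these shifts was not tested, although no floor tests more genes and leaving out a time uses fewer samples. Of all genes at least 2-fold different between KO and WT cells, 54.6% were higher at 4 h, against 39.6% with cyclic loess and 33.9% with median centring, and 32.4% at 2.5 h, against 21.2% with median centring. Pfkfb2 lost its 2-fold differences with the mean of probe sets. No paired analysis was possible because each genotype and time has 1 array, other than the genotype difference itself, which sets KO against WT arrays of the same time. Signal near the floor limits Slc2a3 and Slc16a3, and the 0 h values of Egln3.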
